A study of Homo sapiens with 4 samples.

Results

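The genes described here make ribosomes or supply cell growth alongside them. They are a list of 41 symbols, drawn up by name with earlier results of these data known. It holds nucleolar proteins, the 2 classes of small nucleolar ribonucleoprotein, subunits and factors of RNA polymerases I and III, assembly factors of the small and large ribosomal subunits, and 4 enzymes of polyamine and nucleotide synthesis. Each gene was read by the brightest probe set that carries its symbol alone, which gave values for 35 of the 41, out of 19775 symbols on the array. NOP56, DKC1, BOP1 and PPAN have only probe sets that list further symbols, and the annotation used here names no probe set for GNL3 or DDX18, so these 6 have no value below. The cells were Jurkat, a human T-cell leukemia line. They were transfected for 24 h with 100 nM of a pool of siRNAs against LEF1 (siLEF1, 2 arrays) or with 100 nM of a non-targeting pool (siNT, 2 arrays), and every group received the same transfection reagent. The labels call the arrays of a group biological replicates. All values are RMA signals on the log2 scale from the HG-U133 Plus 2.0 array, where a difference of 1 is a 2-fold change. Results hold for this single line.

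A ribosome starts in the nucleolus, where RNA polymerase I copies the ribosomal DNA into a long precursor RNA. Small nucleolar ribonucleoproteins modify this RNA, processing factors cut and fold it, and the small and large subunits are assembled around it while RNA polymerase III supplies the 5S RNA. The transcription factor MYC is well known to drive many of these genes, often through the E-box CACGTG near their start sites. Fast-growing leukemia cells depend on a high output of ribosomes.

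LEF1, the siRNA target, had signals of 11.24 and 11.56 with siLEF1, compared with 12.30 and 11.92 with siNT. Its log2 difference was -0.71, and it did not pass the test (adjusted p = 0.191 from limma). The paper reports a knockdown of LEF1 in siLEF1 cells by other methods, in mRNA by quantitative PCR and in protein by western blotting. Some other readings of the arrays also differed between the groups, while the mean signals of 4 B-cell and 5 epithelial and stromal markers overlapped. The 5' minus 3' signal of ACTB, a sign of RNA integrity, was -1.08 and -1.55 with siLEF1, compared with -1.80 and -1.95 with siNT. The mean signal of 8 T-cell markers, all of them above the median of every array, was 10.12 and 10.20 with siLEF1, compared with 10.03 and 9.57 with siNT. Of 5 myeloid markers 1 or 2 lay above the array median, and their mean signal was 3.77 and 3.96 with siLEF1 against 4.15 and 4.41 with siNT. For 2 erythroid markers, both above the array median, it was 5.92 and 5.84 against 6.58 and 6.15. The part of these shifts in the results below was not tested. RNA of whole cultures was measured, so fewer cells with a transcript and less of it per cell cannot be told apart.

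None of the 35 ribosome biogenesis genes passed the test, although most had a higher signal in siLEF1 cells. Of the 35, 28 had a difference above 0 (80%, where 53.5% of all genes had and 51.5% of those with a mean signal of at least 8) and 21 were higher in both siLEF1 arrays than in both siNT arrays, led in size by POLR3G, UBTF and SRM. That is 60% of the measured genes, where 28.1% of all genes were higher in this way and 35.4% of those with a mean signal of at least 8. RRN3 and RRS1, 5.71%, were lower in both siLEF1 arrays, against 26.4% of all genes and 34.9% of those with a mean signal of at least 8. The median log2 difference of the 35 was 0.19, and that of all genes was 0.02.

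The limma fit over 54613 probe sets called 0 of the 35 at an adjusted p under 0.05, with or without the 2-fold limit, and the smallest adjusted p was 0.150. Among all genes 0.0657% passed as higher and 0.263% as lower. At an unadjusted p under 0.05, 11 of the 35 were higher (31.4%) and 1 was lower (2.86%), where the shares of all genes were 7% and 11.5%, and those of genes with a mean signal of at least 8 were 11.8% and 13.9%. Without moderation of the variances, an F test left 3 of the 35 higher and 0 lower at an unadjusted p under 0.05, beside 3.79% and 6.03% of all genes, and 0 after adjustment. Without siLEF1 replicate 1 the limma fit left 3 higher and 0 lower, beside 1.92% and 5.2% of all genes. Without siLEF1 replicate 2 it left 2 and 0, beside 2.82% and 6.34%. All 35 lay above the upper quartile of every array. When each array was centred on housekeeping genes, 16 of the 35 rather than 21 were higher without overlap, beside 24.7% of all genes.

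**Figure D1:**
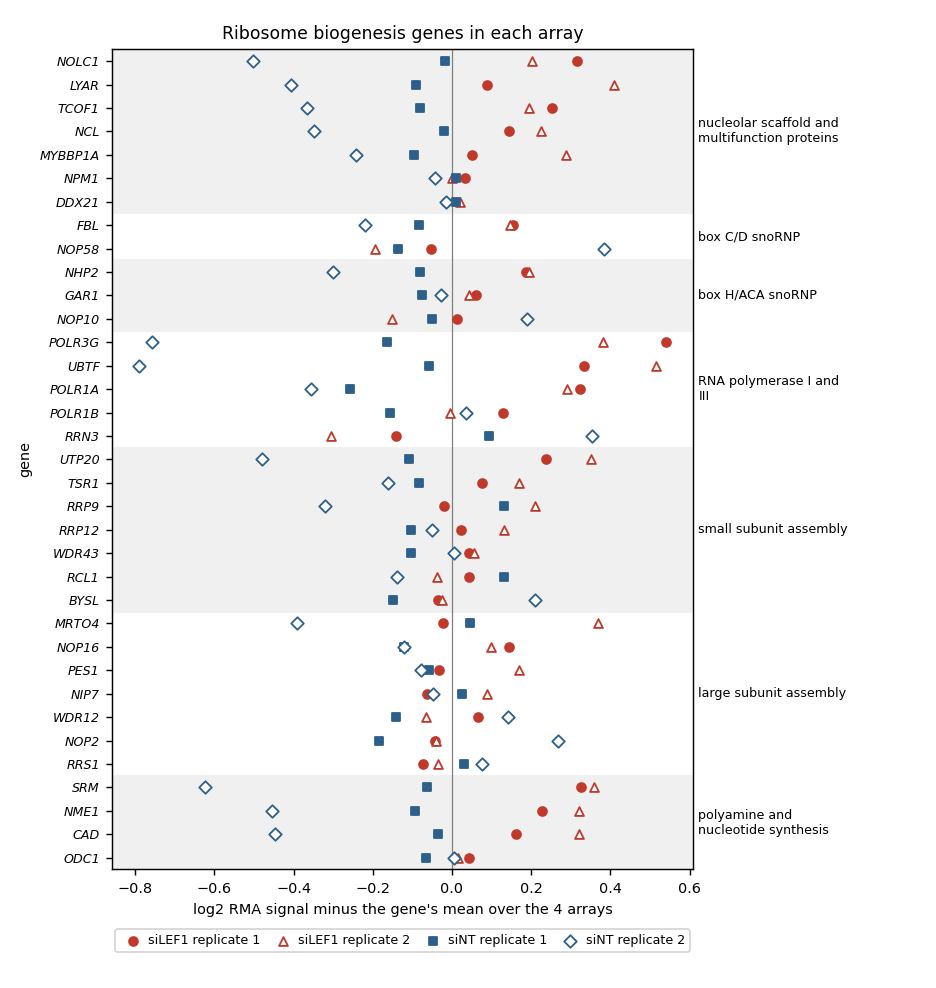
Signal of each of the 35 genes in each array (horizontal axis, log2 RMA signal minus the mean of the gene over the 4 arrays), grouped by role on the vertical axis. Circles and triangles are the siLEF1 replicates, squares and diamonds the siNT replicates. In 21 genes both siLEF1 arrays lie to the right of both siNT arrays, and in RRN3 and RRS1 both lie to the left.

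Genes of RNA polymerases I and III had the widest range, from -0.45 to 0.92 over 5 genes, with a median of 0.61. POLR3G encodes a subunit of one form of RNA polymerase III that is common in proliferating cells. It read 9.0 and 8.84 with siLEF1, compared with 8.30 and 7.70 with siNT. Both siLEF1 arrays lay above both siNT arrays, which were themselves 0.59 apart. The log2 difference was 0.92 (standard error, SE, 0.23, limma adjusted p = 0.154), or 1.90-fold. UBTF, which binds the ribosomal DNA and opens it for RNA polymerase I, had signals of 9.15 and 9.33 with siLEF1, compared with 8.75 and 8.02 with siNT. The groups did not overlap, and siNT replicate 2 stood 0.73 below siNT replicate 1. The log2 difference of UBTF was 0.85 (SE 0.26, limma adjusted p = 0.209). POLR1A encodes the largest subunit of RNA polymerase I. It read 8.19 and 8.16 with siLEF1, compared with 7.61 and 7.51 with siNT, so that the replicates of each group were close together and the groups apart. POLR1A had the smallest p of the 35 genes, with a log2 difference of 0.61 (SE 0.15, limma adjusted p = 0.150).

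The other 2 polymerase genes did not lie higher in both siLEF1 arrays. POLR1B, the second largest subunit of RNA polymerase I, had signals of 9.49 and 9.36 against 9.20 and 9.40, and the groups overlapped. RRN3, the factor that recruits RNA polymerase I to its promoter, had signals of 9.89 and 9.72 with siLEF1, compared with 10.12 and 10.38 with siNT. It was lower in both siLEF1 arrays, with a log2 difference of -0.45 (SE 0.17, limma adjusted p = 0.283). Near-identical pseudogene copies of RRN3 exist, and its probe set may read them as well.

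All 4 enzymes of polyamine and nucleotide synthesis were higher in both siLEF1 arrays, with a median difference of 0.52. SRM, spermidine synthase, had signals of 10.89 and 10.93 with siLEF1, compared with 10.51 and 9.94 with siNT. The siLEF1 arrays were 0.03 apart, and the siNT arrays were 0.56 apart. Its log2 difference was 0.69 (SE 0.21, limma adjusted p = 0.216). NME1, a nucleoside diphosphate kinase, had signals of 12.15 and 12.24 against 11.82 and 11.46, which did not overlap. The log2 difference of NME1 was 0.55 (SE 0.18, limma adjusted p = 0.231), and the close sequence of its neighbour NME2 leaves its reading uncertain. CAD, the enzyme of the first steps of pyrimidine synthesis, had signals of 9.10 and 9.26 against 8.90 and 8.49, with a log2 difference of 0.48 (SE 0.19, limma adjusted p = 0.300). ODC1, ornithine decarboxylase, differed least of the 4. It read 12.39 and 12.36 with siLEF1, compared with 12.28 and 12.35 with siNT, a difference of 0.06.

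Of the nucleolar scaffold and multifunction proteins, 7 were measured and 5 were higher without overlap, with a median difference of 0.37. NOLC1, a chaperone of small nucleolar ribonucleoproteins, had signals of 11.62 and 11.50 with siLEF1, compared with 11.29 and 10.80 with siNT. Both siLEF1 arrays were above the siNT arrays, and siNT replicate 2 was the lowest. The log2 difference was 0.52 (SE 0.20, limma adjusted p = 0.295). LYAR, a nucleolar regulator of growth, had signals of 10.34 and 10.66 against 10.16 and 9.84. TCOF1, which encodes treacle, a partner of UBTF at the ribosomal DNA, had signals of 9.28 and 9.22 against 8.94 and 8.66. Neither overlapped between the groups. Their log2 differences were 0.50 (SE 0.19, limma adjusted p = 0.293) and 0.45 (SE 0.17, limma adjusted p = 0.278). Another probe set of TCOF1 had 0.36, and its dimmest, with a signal under the median of every array, had -0.01. NCL, nucleolin, had signals of 12.24 and 12.32 against 12.08 and 11.75, and MYBBP1A, a nucleolar regulator of ribosomal RNA synthesis, had 8.43 and 8.67 against 8.28 and 8.14. These differences of 0.37 and 0.34 also came without overlap. NPM1, nucleophosmin, and the helicase DDX21 had differences of 0.03 and 0.01, and their groups overlapped.

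Box C/D ribonucleoproteins add methyl groups to ribosomal RNA and were read by 2 genes that lay on opposite sides of 0. FBL, the methyltransferase fibrillarin, had signals of 11.86 and 11.85 with siLEF1, compared with 11.62 and 11.49 with siNT, a difference of 0.30 without overlap. NOP58, a core protein of the same particle, had signals of 11.65 and 11.51 against 11.57 and 12.09. Its siLEF1 values lay close to siNT replicate 1 and below siNT replicate 2, with a log2 difference of -0.25 (SE 0.21, limma adjusted p = 0.629). Against siNT replicate 1 alone it was 0.01. Box H/ACA particles convert uridine to pseudouridine. NHP2, one of their core proteins, had signals of 12.44 and 12.45 against 12.18 and 11.95, with a log2 difference of 0.38 (SE 0.16, limma adjusted p = 0.318) and no overlap. GAR1 had a difference of 0.10, also without overlap, and NOP10 one of -0.14 with overlap (SE 0.17, limma adjusted p = 0.748).

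Small subunit assembly factors had a median difference of 0.15 over 7 genes, of which 4 were higher without overlap. UTP20, a large scaffold of the small subunit processome, had signals of 9.18 and 9.29 with siLEF1, compared with 8.83 and 8.46 with siNT. It stood apart from the other 6, with a log2 difference of 0.59 (SE 0.18, limma adjusted p = 0.212). TSR1, RRP12 and WDR43 had differences of 0.25, 0.15 and 0.10, and their groups did not overlap. RRP9 had a difference of 0.19, with siNT replicate 1 between the siLEF1 arrays. RCL1 and BYSL had differences of 0.01 and -0.06 with overlapping groups.

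Large subunit assembly factors had the lowest median of the 7 roles, 0.02 over 7 measured genes of 10 listed. MRTO4, which helps form the stalk of the large subunit, had signals of 9.95 and 10.34 with siLEF1, compared with 10.01 and 9.57 with siNT. Its difference of 0.35 came with overlap, since siNT replicate 1 lay above siLEF1 replicate 1. NOP16 had signals of 11.10 and 11.05 against 10.83 and 10.83, the smallest gap between the control arrays among the 35 genes, and a difference of 0.24. PES1 had a difference of 0.14 without overlap. WDR12, its partner in the complex with BOP1 that is needed for large subunit maturation, had one of 0.00 with overlap. Dimmer probe sets of WDR12 had 0.70 and 0.69, both higher without overlap. NIP7 and the methyltransferase NOP2 had differences of 0.02 and -0.08 with overlap. RRS1, which brings 5S ribonucleoprotein into the precursor, was lower in both siLEF1 arrays, with signals of 9.58 and 9.62 against 9.69 and 9.74 and a log2 difference of -0.11 (SE 0.15, limma adjusted p = 0.779).

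The 2 control arrays differed from each other more than the knockdown arrays did, in these genes and over all genes. In the 35 genes the median absolute difference was 0.26 between the siNT arrays and 0.09 between the siLEF1 arrays. Over all genes it was 0.21 and 0.12, and among those with a mean signal of at least 8 it was 0.23 and 0.08. In 22 of the 35 genes (62.9%) siNT replicate 2 was below siNT replicate 1, as in 51.0% of all genes and 58.4% of those with a mean signal of at least 8. It was below in all 11 genes that were higher at an unadjusted p under 0.05, which were picked with the same siNT values. The 2 housekeeping genes picked in this way, HPRT1 and TFRC, had it below as well. Their differences, siNT replicate 2 minus replicate 1, were -0.57 and -0.14. The share among all genes picked in this way was not counted, so this cannot be called a trait of the 11.

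Each control array was therefore also used alone. Both comparisons share the siLEF1 arrays, and the lone control array is assumed to vary as the siLEF1 arrays do. Against siNT replicate 1 the median difference was 0.18 and 28 of the 35 genes were above 0 (80%), where 53.4% of all genes were and 47.8% of those with a mean signal of at least 8. At an unadjusted p under 0.05, POLR1A, POLR3G, UBTF and SRM were higher and 0 were lower, beside 3.81% and 9.99% of all genes and 4.84% and 9.55% of those with a mean signal of at least 8, and 0 of the 35 passed after adjustment by limma, as 0 of all genes did. Against siNT replicate 2 the median was 0.24 and 28 genes were again above 0, where 52.2% of all genes were and 53.8% of those with a mean signal of at least 8. Here 12 were higher and 2 lower at an unadjusted p under 0.05, beside 13.6% and 14.2% of all genes. Among genes with a mean signal of at least 8 the shares were 23.3% and 19.2%. POLR3G and UBTF passed after adjustment, with log2 differences of 1.22 and 1.22 (adjusted p = 0.0467 and 0.0480 from limma), while 0 of the 35 passed as lower, and 1.07% and 2.89% of all genes passed as higher and lower. Among genes with a mean signal of at least 8, 1.75% and 3.48% passed. Against siNT replicate 1 the same genes had differences of 0.63 and 0.48. For SRM the values were 0.41 and 0.97, for POLR1A 0.56 and 0.66, and for NOP16 0.24 and 0.24. The values of POLR1A and NOP16 moved little with the control array, and those of POLR3G, UBTF and SRM moved by 0.56 or more.

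**Figure D2:**
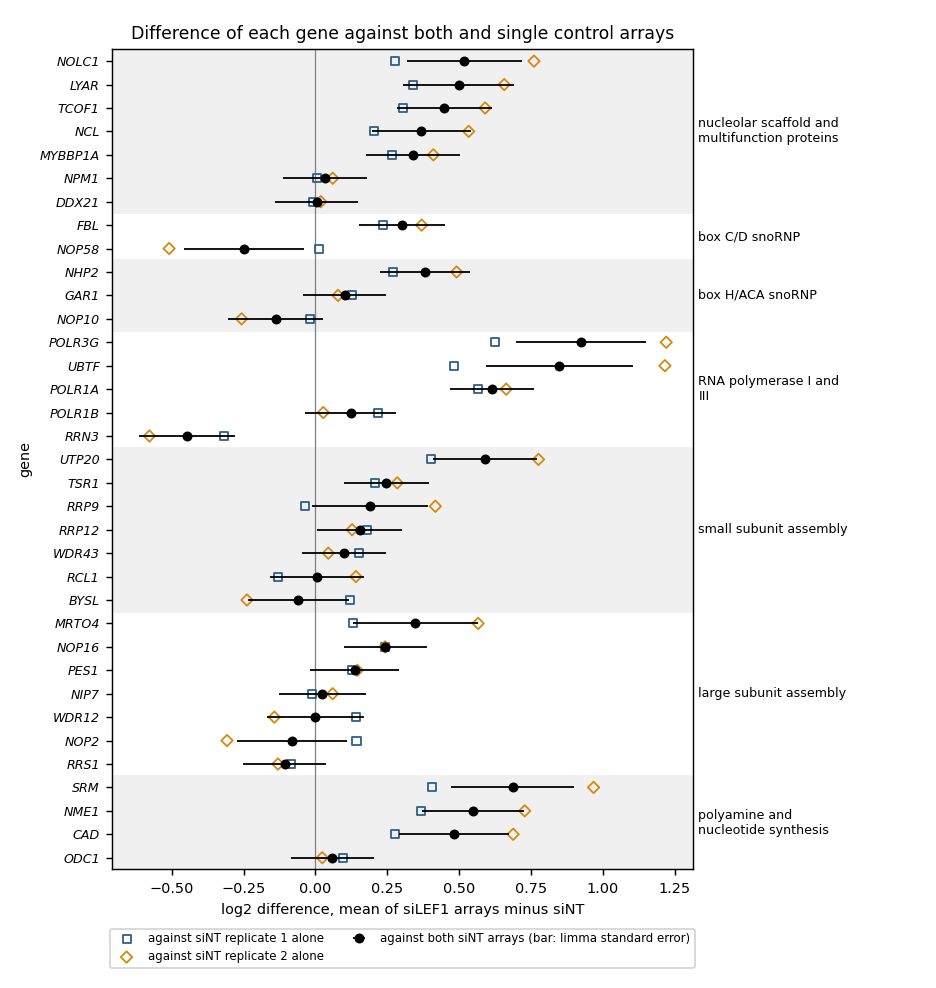
Log2 difference of each gene (horizontal axis, mean of the siLEF1 arrays minus siNT), grouped by role. Black circles use both siNT arrays with the limma standard error as bar, open squares use siNT replicate 1 alone and open diamonds siNT replicate 2 alone. POLR3G and UBTF reach 1.22 against siNT replicate 2 and 0.63 and 0.48 against replicate 1.

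Further probe sets of the same genes mostly lay on the same side. The 35 genes have 74 probe sets of their own with a median difference of 0.28, of which 60 were above 0 (against 56.7% of all probe sets) and 44 were higher without overlap, where 27.4% of all probe sets were. Of 20 genes with more than 1 probe set, 13 had all of them above 0, 0 had all below and 7 had both. CAD, LYAR, MYBBP1A, NCL and POLR3G were higher without overlap in every probe set, but only in LYAR and MYBBP1A did all of these lie above the median of every array. The further probe set of CAD and the dimmest of POLR3G lay under the median of every array, and those left of NCL and POLR3G lay above it in 1 siLEF1 array alone. UBTF was less even. Its brightest probe set had a difference of 0.85 and the other 4 had 0.28, 0.43, 0.41 and 0.04. In NPM1 the brightest had 0.03 and the others 0.38 and 0.39, and many processed pseudogenes of NPM1 exist, so these probe sets may not read a single transcript. A dimmer probe set of POLR1B had signals of 6.99 and 7.04 with siLEF1, compared with 6.36 and 5.48 with siNT, a log2 difference of 1.09 where its brightest had 0.12. For NOLC1 the others had -0.14 and 0.21, against 0.52 in the brightest. For WDR12 they had 0.70 and 0.69, against -0.0011. The dimmest of TSR1 had 0.75, against 0.25 in its brightest, and a dim probe set of RRP12 had -0.30, against 0.15. None of the 74 passed in the limma fit, in which 20 were higher and 1 was lower at an unadjusted p under 0.05, beside 6.85% and 8.79% of all probe sets.

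**Figure D3:**
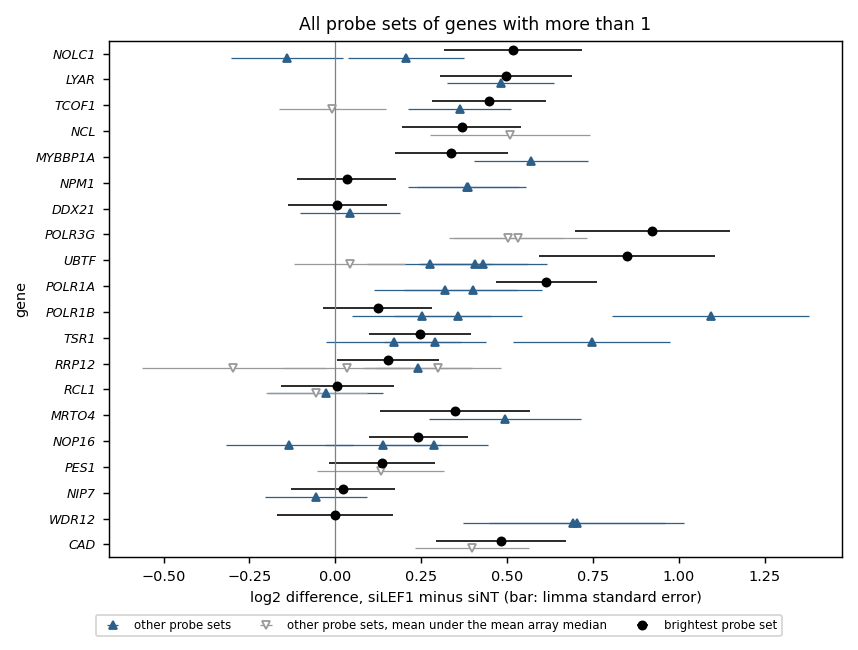
Log2 difference, siLEF1 minus siNT, of every probe set of the 20 genes with more than 1, with limma standard errors as bars. Black circles are the brightest probe sets, triangles the others, and open grey triangles those with a mean signal under the mean of the array medians. UBTF spreads from 0.04 to 0.85 and POLR1B from 0.12 to 1.09.

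Other assembly and polymerase genes, listed by name, had medians nearer to 0 or below it, and the lists were not tested against each other. Of 41 further small subunit factors 12 were higher and 13 lower without overlap, with a median of 0.03. Of 38 further large subunit factors 12 were higher and 8 lower, with a median of -0.01. WDR36, DDX52 and FCF1, of the small subunit pathway, had differences of 0.94, 0.64 and 0.57. TEX10, NVL and RRP1, of the large subunit pathway, had -1.16, -0.50 and 0.40. Of 29 further polymerase I and III genes 9 were higher and 12 lower, with a median of -0.15. POLR3C, a subunit of RNA polymerase III, had signals of 8.58 and 8.47 against 9.47 and 9.42 and a difference of -0.92 (adjusted p = 0.0829 from limma). The termination factor TTF1 and TAF1A, of the RNA polymerase I initiation factor, had -0.60 and -0.86. In these lists limma passed 0 genes in either direction, and at an unadjusted p under 0.05 it had 3 higher and 3 lower, 4 and 2, and 3 and 5.

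Of 21 measured further genes of polyamine and nucleotide synthesis, 15 were higher and 3 lower without overlap, with a median of 0.20, and 0 passed in limma, with 7 higher and 1 lower at an unadjusted p under 0.05. PRPS2, which makes the ribose donor of nucleotides, and SMS, spermine synthase, had differences of 0.87 and 0.71. SAT1, which breaks polyamines down, had signals of 9.02 and 9.06 with siLEF1, compared with 9.82 and 10.87 with siNT, a difference of -1.31 (adjusted p = 0.161 from limma). The cytosolic ribosomal proteins, the parts that the assembly factors put together, had a median of 0.00 over 53 genes, from -0.45 to 0.27. Of these 14 were higher and 16 lower without overlap, and 0 had an unadjusted p under 0.05 in limma. The array also holds 3 control probe sets for 18S ribosomal RNA, whose highest signals were 12.36 and 11.42 with siLEF1, compared with 11.18 and 12.02 with siNT, with overlap. Labeling starts at poly(A) tails, which ribosomal RNA lacks, so these signals are no measure of its amount. MYC had signals of 11.42 and 11.15 with siLEF1, compared with 10.61 and 10.20 with siNT, and its log2 difference of 0.88 (SE 0.20, limma adjusted p = 0.139) did not pass.

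**Figure D4:**
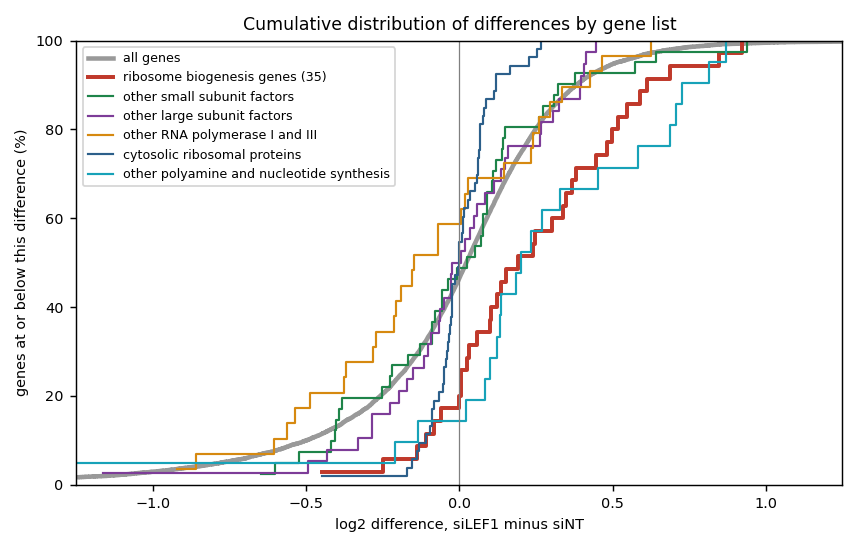
Cumulative share of genes (vertical axis, %) at or below each log2 difference (horizontal axis, siLEF1 minus siNT) for the 35 ribosome biogenesis genes, the 5 further lists named in the legend and all genes. At their medians the 35 genes (0.19) and the further polyamine and nucleotide genes (0.20) lie to the right of the other curves, and the ribosomal proteins form the steepest curve around 0.00. SAT1 and some other genes of the array lie outside the range drawn.

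The sequence around the start sites was not itself used to choose the genes. Many of the named genes are known targets of MYC, however, so their share of E-boxes is not independent of the choice. Promoter windows from RefSeq (GRCh38.p14), which run from 250 bases before to 50 after a start site, were found for 33 of the 41 genes. The E-box CACGTG, which reads the same on both strands, occurred in 18 of them (54.5%), against 10.9% of genes on the array and 14.4% of those with a mean signal of at least 8. Of the further small and large subunit factors 38.9% and 32.4% held it, and of the ribosomal protein genes 6.35%. Of 20 E-boxes in these windows 12 (60%) began after the start site, compared with 11.1% of all E-boxes in all windows. CTTTGA, a core that LEF1 and its TCF relatives bind, on either strand, occurred in 4 of the 33 genes (12.1%), near the 13.9% of genes on the array. To show where the E-box lies in genes that were higher in both siLEF1 arrays, 30 bases of 7 windows are given in order of their p in the fit, in the direction of transcription, with the E-box in capitals. The last line is the POLR1A window with CTTTGA in capitals.
UTP20 (chr12:101280083-101280112, plus strand): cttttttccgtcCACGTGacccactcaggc
SRM (chr1:11060200-11060229, minus strand): ccggccgggcccCACGTGgcccctggagcg
NME1 (chr17:51153579-51153608, plus strand): caagtgctgcgaacCACGTGggtcccgggc
LYAR (chr4:4290068-4290097, minus strand): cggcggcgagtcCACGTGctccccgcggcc
MYBBP1A (chr17:4555340-4555369, minus strand): ggggccggagcaCACGTGtttcgtgtttcg
FBL (chr19:39846356-39846385, minus strand): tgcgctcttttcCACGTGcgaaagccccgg
PES1 (chr22:30591880-30591909, minus strand): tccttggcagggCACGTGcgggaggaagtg
POLR1A (chr2:86105986-86106015, minus strand): tgtcttatatatCTTTGAttgttttcaaaa

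In UTP20 the E-box began at position -10 from the start site, and in FBL at base 7, in PES1 at base 14, in MYBBP1A at base 28 and in NME1 at base 35 after it. In SRM and LYAR it lay further upstream, at positions -199 and -64 from the start. Of the measured genes, 17 with an E-box had a median difference of 0.14 (from -0.14 to 0.69) and 12 with a window but no E-box had 0.24 (from -0.45 to 0.85). Among them 10 of 17 and 7 of 12 were higher without overlap. The 6 measured genes without a window had a median of 0.30. The medians were not tested against each other. POLR1A and UBTF, both without an E-box in their windows, were among the 3 genes with the smallest p. A match of letters does not show that a factor binds there.

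**Figure D5:**
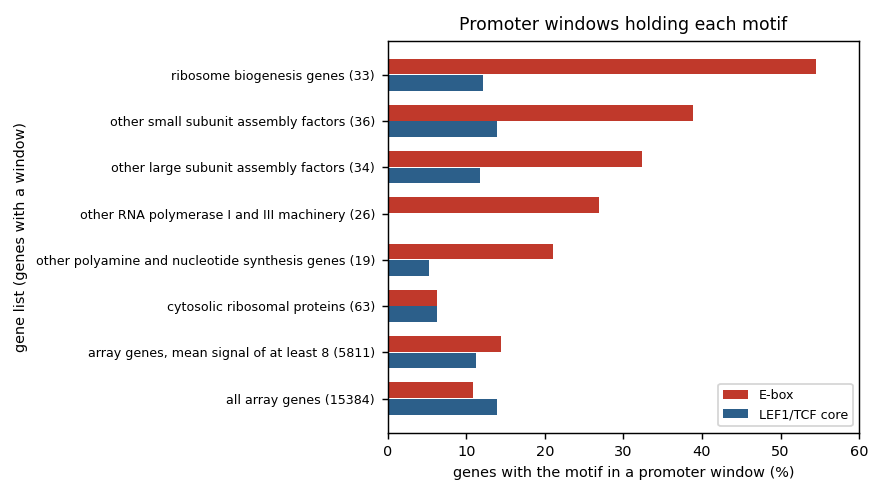
Percent of genes with the E-box (red) or the LEF1/TCF core (blue) in a RefSeq promoter window, for the ribosome biogenesis genes, further lists and genes on the array, with the number of genes with a window in brackets. The ribosome biogenesis genes have the longest E-box bar, 54.5% against 10.9% of all array genes, while 12.1% and 13.9% hold the LEF1/TCF core.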

How the data were processed

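Total RNA of Jurkat cells was hybridised to 4 HG-U133 Plus 2.0 arrays, with groups and replicate numbers taken from the sample titles. The signals were summarised per probe set with RMA by the authors, and Affymetrix Expression Console 1.1 is named in the submitters' processing notes. Each deposited value is a log2 signal. RMA gives all arrays the same distribution of probe intensities before probe sets are summarised, so a shift of all RNAs together would not be seen. The summarised values still differed a little, with upper quartiles from 7.2371 in siLEF1 replicate 1 to 7.3727 in siNT replicate 1. Arrays of non-transfected cells were not analysed here.

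The 62 control probe sets were left out and the other 54613 were fitted with limma 3.58.1 in R 4.3.3 (lmFit, eBayes, 2-sided, Benjamini-Hochberg over all probe sets), as siLEF1 minus siNT. Calls were made at an adjusted p under 0.05 and over 2-fold, as the paper's methods state, and also at any fold. The fit had 2 residual degrees of freedom and 4.30 prior ones. Nothing in the labels ties arrays to separate cultures beyond the word biological, so p-values measure only the spread between these arrays. Symbols came from the platform's annotation and were updated by Entrez number (21304 of 21359 found). Of the probe sets, 41091 had 1 symbol, 1801 several and 11721 none.

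The members and lists were chosen with earlier results of these data known. Full statistics were given for the 12 members with the smallest p and the 4 with the largest and the 4 with the smallest differences, and of further lists the 3 genes with the smallest p were eligible. Other members are named by value. No set test was run. Alternatives were a filter at a mean signal of 6, an intensity trend with robust hyperparameters, unmoderated variances, the replicate number as a block, 2 centrings, other probe set choices and each array left out. A background of genes with a mean signal of at least 8, a crossed block and the median over all probe sets were added after seeing the data. The fit was tested on simulated data. Promoter windows were searched with Python 3.11.15.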

Additional observations from a re-analysis of the deposited data

How the results depend on the processing

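The limma fit called 0 ribosome biogenesis genes, and so did every alternative except the fit without siNT replicate 1, which called POLR3G and UBTF. Leaving out 1 array at a time gave 0 to 2 genes called higher with or without the 2-fold limit. At an unadjusted p under 0.05 there were 11 higher and 1 lower, and 12 and 2 without siNT replicate 1, 4 and 0 without siNT replicate 2, 3 and 0 without siLEF1 replicate 1, 2 and 0 without siLEF1 replicate 2, 3 and 0 with unmoderated variances, and 7 and 0 with the replicate block. The genes higher without overlap numbered 21, and 23 to 26 with 1 array left out. Those lower numbered 2, 1 without the probe sets that may read several transcripts (29 genes), 3 to 7 with 1 array left out, 7 without siNT replicate 1 and 4 without siLEF1 replicate 1. The cause was not tested, though fewer arrays overlap less often by construction. Over all genes the number higher without overlap was 5551 of 19775. It rose to 8388 without siNT replicate 1 and to 8041 without siNT replicate 2. The rise with a control array left out is therefore not particular to the ribosome biogenesis genes. For the siLEF1 arrays left out and for the replicate block, no matching number over all genes was counted.

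The median difference of 0.19 was 0.27 with the mean of all probe sets of a gene, 0.28 over all 74 probe sets, 0.14 without the probe sets that may read several transcripts, 0.16 with housekeeping centring, and 0.15 to 0.24 with 1 array left out. TCOF1 turned to -0.0087 without the probe sets that may read several transcripts. NOP58 turned to 0.0126 without siNT replicate 2 and ranged from -0.51 to 0.0126 with 1 array left out. The other 13 genes with full statistics kept their sign. Only some settings could change a sign. The blocks, the signal filter, the intensity trend, unmoderated variances and 1 probe set per gene left every difference of these genes as it was. With 1 array left out the medians of the further lists ran from -0.0329 to 0.046 for the small subunit, from -0.0464 to 0.0514 for the large subunit, from -0.24 to -0.0333 for polymerases I and III, from -0.0208 to 0.0171 for ribosomal proteins (-0.0322 with housekeeping centring) and from 0.15 to 0.31 for polyamine and nucleotide synthesis.

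Over all probe sets the deviations of same-numbered arrays had a correlation of -0.15. With 2 arrays a group this cannot tell whether such arrays share more than a number. With the replicate number as a block, 0 of the 35 genes passed, while 1161 of all probe sets passed against 113. The median of 0.19 could not move, since a block in this balanced layout changes only the p-values. The crossed pairing, chosen after seeing the data, called 0 of the 35 and 1058 probe sets. Other settings also moved the number called by over 1.5 times, from 113 of 54613. Over the same probe sets, unmoderated variances gave 2 and housekeeping centring 418. Leaving out siNT replicate 1 raised the number, and leaving out any other array lowered it. The remaining settings tested fewer, so their counts are over unlike sets. The filter at a mean signal of 6 gave 5 of 19383. With 1 probe set per gene it was 221 of 19775, and with the mean of all probe sets 262 of 19775 genes. There were 2 arrays a group, and their number limits the precision of every value.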
